A study of Mus musculus with 12 samples.

Results

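Oxidative phosphorylation is carried out in the inner mitochondrial membrane by 5 protein complexes, most of whose subunits are encoded in the nucleus. The genes described here are the 84 loci, of 20989 in the expression tables, whose symbols begin like those of complex I (Ndufa, Ndufb, Ndufc, Ndufs or Ndufv followed by a number), complex II (Sdha to Sdhd), complex III (Uqcr), complex IV (Cox4 to Cox8) or complex V (Atp5). They were chosen by name and not by level or response. Complex I contributed 37 loci, complex II 4, complex III 8, complex IV 18 and complex V 17. The symbols are wider than the complexes in a few places. Ndufa4 is now placed in complex IV, Cox7a2l is a supercomplex factor, Atp5s is a coupling factor and Atp5sl acts in complex I assembly, and each was counted where its symbol put it.

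RNA came from the auditory cortex of 6 C57bl6/J mice aged 4 weeks, cut out of acute brain slices 350 µm thick. The slices recovered for 15 min in dissection buffer and, divided at the midline, rested for 45 min in aCSF. One hemisphere of each mouse was then kept for 1 h in control aCSF and the other for 1 h in a cocktail of 50 µM bicuculline, 100 µM norepinephrine, 50 µM carbamoylcholine, 100 µM dopamine, 40 µM ascorbic acid and 100 µM serotonin, so that each mouse gave 1 control and 1 cocktail library. By the study's methods both hemispheres spent 1 h more in bubbled aCSF after the incubation, a step that the sample labels leave out. The mixture blocks inhibition through the GABA-A receptor and supplies neuromodulators, and the tissue of both groups had passed through slicing. The 12 poly-A libraries held between 10600193 reads (control, mouse 6) and 19768184 reads (control, mouse 1) on annotated loci, as recovered from the confidence limits of the deposited values. The tissue is a mixture of cells, and fewer cells of a type cannot be told apart from less RNA per cell.

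Complex I takes electrons from NADH and complex II from succinate. Both pass them through ubiquinone to complex III, cytochrome c carries them to complex IV, which reduces oxygen, and complex V uses the proton gradient that complexes I, III and IV build to make ATP. In cortex this chain supplies most of the ATP spent on ion pumping and synaptic transmission. Several complex IV subunits exist as a broadly used isoform and a second one typical of heart and skeletal muscle, lung or testis, and the slices were compared in both.

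Levels are given as FPKM, fragments scaled by transcript length and by the mapped reads of the library, which is a level per length. It can be compared between genes only as far as their reads have a single place in the genome, and for some loci below they do not. In the control hemispheres the 84 loci together made up between 2.88% and 3.24% of all FPKM of a library, and in the cocktail hemispheres between 2.85% and 3.17%. Of the 84, 80 had a mean of at least 1 FPKM over the 12 libraries and entered the tests. The 4 below that level were Cox4i2, Cox7b2, Cox8b and Cox8c, all of complex IV. Among the tested loci of each complex, the median control level was 66.2 FPKM in complex I, 54.2 in complex II, 120 in complex III, 175 in complex IV and 128 in complex V. The ranges of the complexes overlapped.

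**Figure D1:**
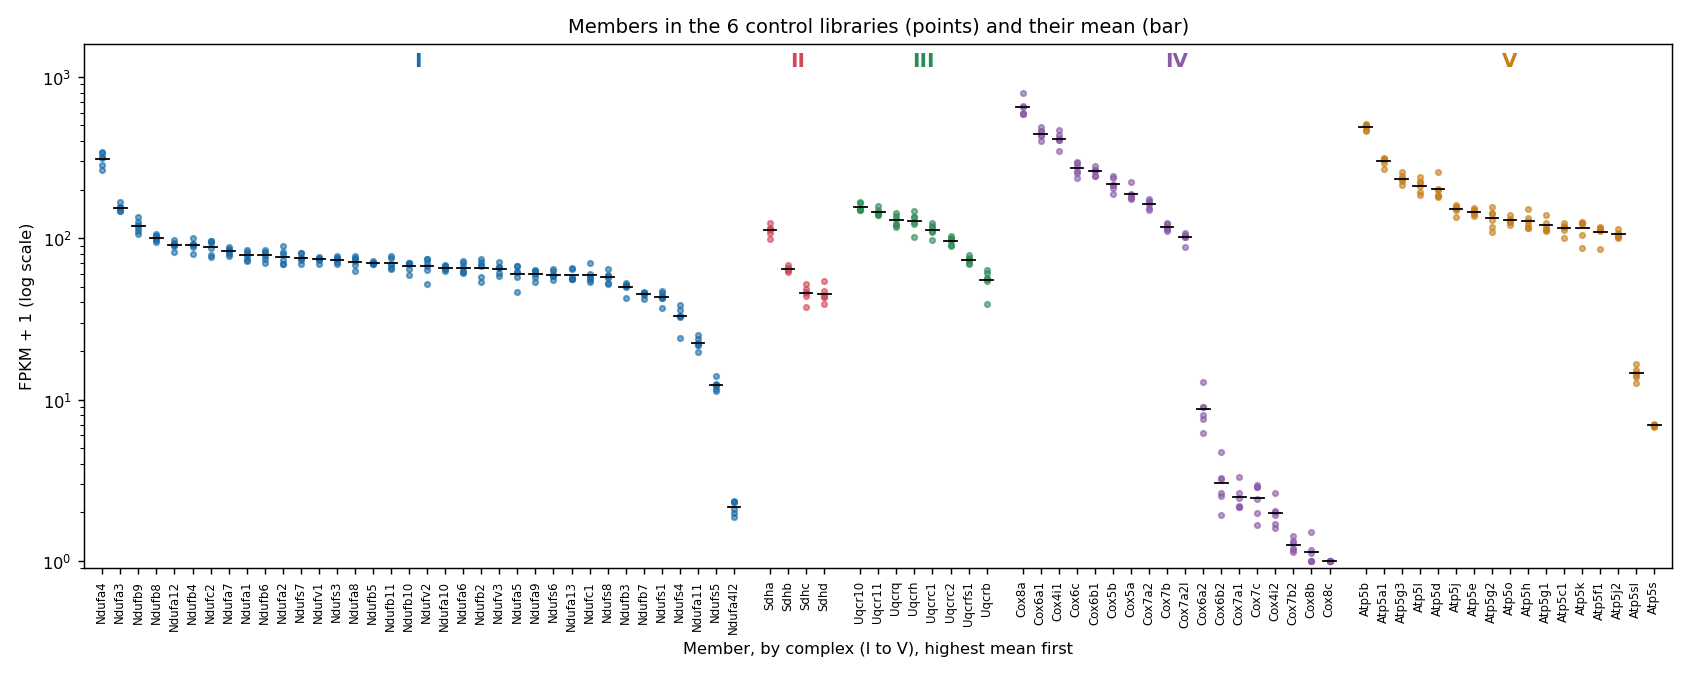
Level of 83 loci in the 6 control libraries (points) with their mean (bar), on a log axis of FPKM + 1, grouped by complex I to V and ordered by mean. Complexes I, II and III lie mostly between 40 and 160 FPKM, whereas complex IV runs from Cox8a at 647 FPKM down to Cox8c, which is listed at 0 in every library.

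Complex IV held the highest locus and the steepest range. Cox8a, a small membrane subunit, ranged in the control libraries from 586 to 794 FPKM with a median of 625, and in the cocktail libraries from 572 to 708 with a median of 647. Cox6a1 (445 ± 30.6 FPKM, SD, n = 6 control libraries) and Cox4i1 (413 ± 39.4), a regulatory subunit that binds adenine nucleotides, followed. Their control ranges, 401 to 487 and 348 to 467 FPKM, overlapped, so the order of these 2 neighbours was within their spread, while Cox8a was above both in every library of the group. Cox6c (269.7 ± 23.5, given for the order and chosen after its values were seen) was next, its control range of 236 to 295 FPKM overlapping that of Cox6b1 (258 ± 13.8, 242 to 278). Cox5b (215 ± 19.4), Cox5a (188 ± 17.7), Cox7a2 (162 ± 9.73), Cox7b (116 ± 5.76) and Cox7a2l (100.3 ± 6.83) came after them.

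The muscle, lung and testis isoforms were low in the same libraries. Cox6a2, the heart and skeletal muscle form, ranged from 5.19 to 11.9 FPKM in control and from 6.12 to 11.8 in cocktail, a share of 1.72% ± 0.491 (SD, n = 6) of Cox6a1 and Cox6a2 together in control and 1.86% ± 0.447 in cocktail. It was nevertheless the highest of the alternative forms, with 54 to 130 reads a library. Cox7a1 made up 0.913% ± 0.307 of the Cox7a1 and Cox7a2 sum, the testis form Cox6b2 0.791% ± 0.398 of the Cox6b sum, and the lung form Cox4i2 0.238% ± 0.0855 of the Cox4i sum in control. Cox7b2, at 1 to 5 reads a library, and Cox8b, at 0 to 3 reads, were at the counting limit, and Cox8c was listed at 0 in all 12 libraries. Ndufa4l2, a relative of Ndufa4 known to rise in hypoxia, was at 1.15 ± 0.204 FPKM in control and 1.1 ± 0.152 in cocktail, 0.374% ± 0.0849 of the Ndufa4 and Ndufa4l2 sum in control and 0.339% ± 0.0650 in cocktail. No difference between the hemispheres in these 7 shares passed the test (adding Cox7b2 and Cox8b; exact permutation test flipping the sign within each of 6 mice, two-sided, which cannot go below p = 0.03125; the smallest found was 0.40625).

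The promoters of Cox8a and Cox8b, a high and a low form of subunit 8, are shown with that of Cox6a1, from RefSeq windows on GRCm38.p6 that run from 250 bases before to 50 bases after the annotated start. Capitals mark matches on either strand to the NRF1 core GCATGCGC, the Ets core CCGGAAG, the YY1 core AAGATGGC or TATAAA. Cox8a lies on the minus strand at chr19:7217567-7217866, Cox8b on the minus strand at chr7:140900397-140900696 and Cox6a1 on the minus strand at chr5:115348909-115349208.
Cox8a: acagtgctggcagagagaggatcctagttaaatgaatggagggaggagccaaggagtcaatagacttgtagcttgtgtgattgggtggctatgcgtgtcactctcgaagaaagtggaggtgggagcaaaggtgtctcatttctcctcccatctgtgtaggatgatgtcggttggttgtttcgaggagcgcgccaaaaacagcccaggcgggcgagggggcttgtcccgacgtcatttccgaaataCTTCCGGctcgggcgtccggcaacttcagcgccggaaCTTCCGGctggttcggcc
Cox8b: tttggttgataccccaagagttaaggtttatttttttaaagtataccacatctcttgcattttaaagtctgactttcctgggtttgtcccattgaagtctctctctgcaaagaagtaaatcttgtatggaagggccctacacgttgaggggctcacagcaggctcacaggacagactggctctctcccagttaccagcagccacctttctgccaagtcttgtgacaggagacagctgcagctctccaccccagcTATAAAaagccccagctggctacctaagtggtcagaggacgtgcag
Cox6a1: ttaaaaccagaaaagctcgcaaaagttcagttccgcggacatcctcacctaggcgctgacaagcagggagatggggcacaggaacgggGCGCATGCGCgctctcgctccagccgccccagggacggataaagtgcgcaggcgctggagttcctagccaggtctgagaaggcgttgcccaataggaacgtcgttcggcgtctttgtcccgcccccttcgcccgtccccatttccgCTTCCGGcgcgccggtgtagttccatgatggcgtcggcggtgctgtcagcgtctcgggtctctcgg
The Cox8a window held 19 CpG pairs and 2 Ets matches, and the Cox8b window held 2 CpG pairs and 1 TATAAA match. In Cox6a1 the NRF1 core matched both strands at 1 overlapping stretch, which counts as 2 matches, beside 1 Ets match. Windows were given for 66 of the 84 genes. The NRF1 core occurred in 15.2% of them, against 2.8% of 27025 windows of all genes and 5.65% of 9175 windows of tested genes. The Ets core occurred in 22.7% (9.12% and 17.7%), the YY1 core in 12.1% (2.88% and 4.87%) and TATAAA in 10.6% (14.2% and 6.47%). A match of letters is no evidence of binding.

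Within complex I, Ndufa4 was highest. It ranged from 265 to 340 FPKM in control, with a median of 317, and from 281 to 357 in cocktail, with a median of 331. Ndufa3, an accessory subunit of the membrane arm, was next at 154 ± 7.10 FPKM in control, below Ndufa4 in every library. The nuclear core subunits, most of which hold the flavin or an iron-sulphur cluster, sat close together. The NADH-oxidising subunit Ndufv1 was at 72.9 ± 2.68 FPKM, its neighbour Ndufv2 at 66.0 ± 8.56, the quinone-site subunit Ndufs7 at 74.9 ± 4.32, Ndufs3 at 72.8 ± 3.15, Ndufs8 at 56.1 ± 4.51 and the large subunit Ndufs1 at 42.1 ± 3.56. Over the control libraries Ndufs1 lay below the others given here without overlap, and the neighbours among the rest overlapped.

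Complex II, which is also an enzyme of the citric acid cycle, was led by its flavoprotein. Sdha ranged from 98.6 to 124 FPKM in control and from 107 to 117 in cocktail, and the iron-sulphur subunit Sdhb from 60.7 to 67.2 and from 61.6 to 67.8. The Sdha to Sdhb ratio was 1.75 ± 0.128 in control and 1.72 ± 0.0926 in cocktail (exact sign-flip permutation p = 0.53125). The membrane anchors Sdhc (44.7 ± 4.97) and Sdhd (44.2 ± 5.14) overlapped.

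In complex III the small subunit Uqcr10 was highest at 155 ± 7.58 FPKM in control and Uqcrb, a quinone-binding-site subunit, lowest at 54.0 ± 8.48. The core proteins Uqcrc1 and Uqcrc2 were at 112 ± 9.24 and 95.4 ± 5.39 FPKM and the Rieske iron-sulphur protein Uqcrfs1 at 72.6 ± 3.44. Their order held without overlap only between Uqcrfs1 and the other two.

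In complex V the catalytic beta subunit Atp5b was highest, from 463 to 508 FPKM in control (median 494) and from 476 to 531 in cocktail (median 493). The alpha subunit Atp5a1 was at 299 ± 18.1 in control, so that the Atp5b to Atp5a1 ratio was 1.63 ± 0.0632 in control and 1.6 ± 0.0308 in cocktail (exact sign-flip permutation p = 0.15625), and the central-stalk gamma subunit Atp5c1 was at 114 ± 8.60. Alpha and beta stand in equal number in the enzyme. Subunit c of the rotor ring is encoded by 3 genes with one mature protein. As listed, Atp5g3 made up 48.3% ± 2.51 of their summed FPKM in control, Atp5g2 27.1% ± 2.20 and Atp5g1 24.6% ± 0.758. In cocktail the shares were 48.6% ± 1.37, 27.2% ± 1.96 and 24.2% ± 0.711, with exact permutation p of 0.71875, 0.96875 and 0.25. The summed ring level was 484 ± 35.1 FPKM in control and 477 ± 20.4 in cocktail. Of the 50-base windows of Atp5g2, 88.3% also occurred in other genes with up to 2 mismatches, against 15.0% for Atp5g1 and 0% for Atp5g3. How far this sharing sets the shares and the sum was not tested. The lowest locus of complex V was Atp5s at 5.92 ± 0.133 FPKM.

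One broadly used subunit stood far below the rest. Cox7c, a small subunit of complex IV found in all tissues, lies at chr13:86044798-86046795 (mm10) and was listed between 0.658 and 1.96 FPKM in control (median 1.63) and between 0.370 and 2.51 in cocktail (median 1.25), with 3 to 21 reads a library. The reads had been mapped with at most 1 location allowed, and the sequence of Cox7c is not unique. All 140 windows of 50 bases, the read length, that fit in its coding sequence occurred without a mismatch in the transcript of at least 1 of the processed pseudogenes Gm10012 (chr17:25901856-25902227) and Gm12338 (chr11:75599763-75599954), by GENCODE M21 transcripts. One such window, at chr13:86045788-86045837 on the minus strand, matched both without a mismatch, and is printed because a 50-base read of it has no single place in the genome.
Cox7c: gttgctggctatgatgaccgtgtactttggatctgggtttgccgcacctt
Over its whole transcript 54.8% of windows were shared with another gene at up to 2 mismatches. How far the sharing sets the listed level was not tested, and the level of Cox7c cannot be read from these values.

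The same count over all 84 genes, Cox7c included, gave 31 loci with no shared window and 53 with at least 1, and 25 loci shared over 20% of their windows with a pseudogene. Among the tested loci, the 27 without shared windows had a median control level of 66.2 FPKM, the 26 with up to 20% shared 92.2, the 18 with over 20 to 50% shared 111 and the 9 above that 89.8. Low level and sharing did not go together across the loci (Spearman rho = 0.224 over 80 loci of the same libraries, a description). Atp5g2 shared 88.3% of its windows with pseudogenes and was listed at 132 ± 17.2 FPKM, Ndufs3 shared 74.9% and Uqcrb 60.1%. Ndufs5, chosen after its values were seen, shared 58.2% and was listed at 11.3 ± 0.941 FPKM. Values of genes that share windows are uncertain to an extent that was not measured, and Uqcrh (22.5%) and Ndufb4 (37.5%) below are among them. These percentages allow up to 2 mismatches, and without a mismatch those of Uqcrh and Ndufb4 were 7.83% and 37.0%.

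**Figure D2:**
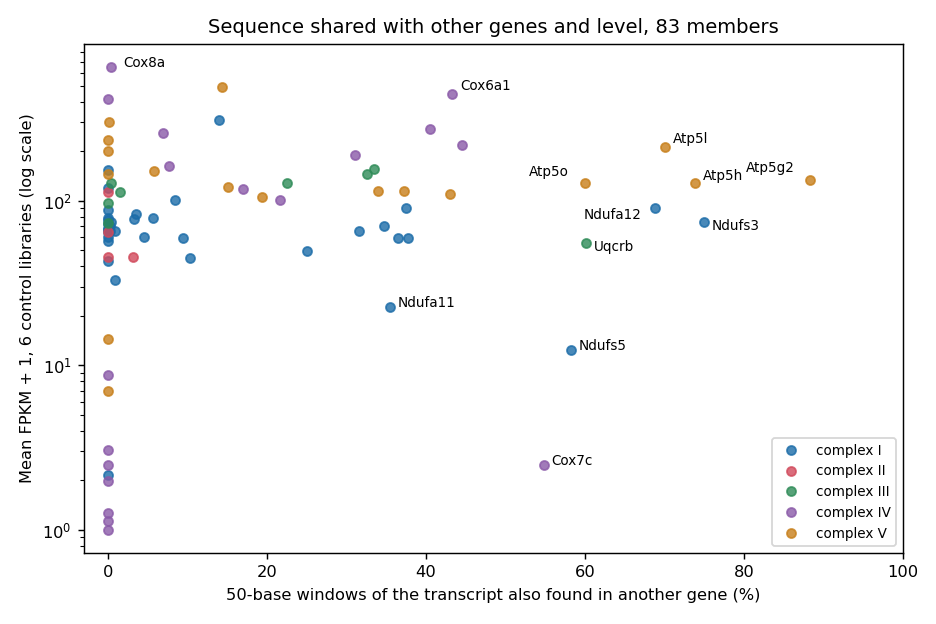
Share of the 50-base windows of each transcript that also occur in another gene with up to 2 mismatches (horizontal axis, percent) against the mean control level (vertical axis, FPKM + 1, log scale) for 83 loci, coloured by complex. Cox7c and Ndufs5 are low with 54.8% and 58.2% of their windows shared, Atp5g2 is at 132 FPKM with 88.3% shared, and the low isoforms at the left edge share none.

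The main question of the design was whether the cocktail incubation changed these transcripts within the same mouse. Under limma on log2(FPKM + 1), with the mouse as a block and Benjamini-Hochberg adjustment over 12032 loci, 0 of the 80 members were called at an adjusted p of 0.05, where 1.5% of all loci tested were called (147 higher and 33 lower). A voom fit on the recovered reads called 0 members too. An unadjusted p under 0.05 was found for 2 members (2.5%), where the background was 8.05%. The same libraries showed the response of activity-regulated genes: Fos, Arc, Junb, Nr4a1 and Egr2 rose by 0.74 to 0.99 on the log2 scale, with groups that did not overlap and limma adjusted p of 1.3e-04 or lower.

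The members' differences were small in both directions. The median log2 fold change, cocktail minus control, was 0.02 over the 80 members (51 above 0 and 29 below) and 0.01 over all loci tested. By complex the median was 0.02 for I (22 of 37 above 0), 0.02 for II (3 of 4), 0.03 for III (6 of 8), 0.01 for IV (9 of 14) and 0.03 for V (11 of 17). All 80 fitted differences were below 0.15 in size on the log2 scale, a change of 1.11-fold in FPKM + 1. For loci near 1 FPKM the change of the level itself is larger than that scale gives. On log2(FPKM + 0.1) the difference of Cox7c was -0.26, and the largest in the voom fit was 0.22 (Atp5s). The direction of the median did not hold under quantile normalization, where it was -0.01, with 34 members above 0 and 46 below, and the median of all loci was -0.01 as well.

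The intervals set a bound on what could have been missed. For 72 of the 80 members (90%, against 80.9% of all loci tested) the 95% interval of the difference lay inside ±0.25 on the log2 scale. That is within 1.19-fold of FPKM + 1, and for loci near 1 FPKM it allows a larger change of the level itself. All 17 loci of complex V and all 4 of complex II were inside it, as were 34 of 37 of complex I, 6 of 8 of complex III and 11 of 14 of complex IV. The widest belonged to Cox7c, from -0.49 to 0.26, at its 3 to 21 reads. Changes smaller than these bounds could not be resolved, and protein was not measured.

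**Figure D3:**
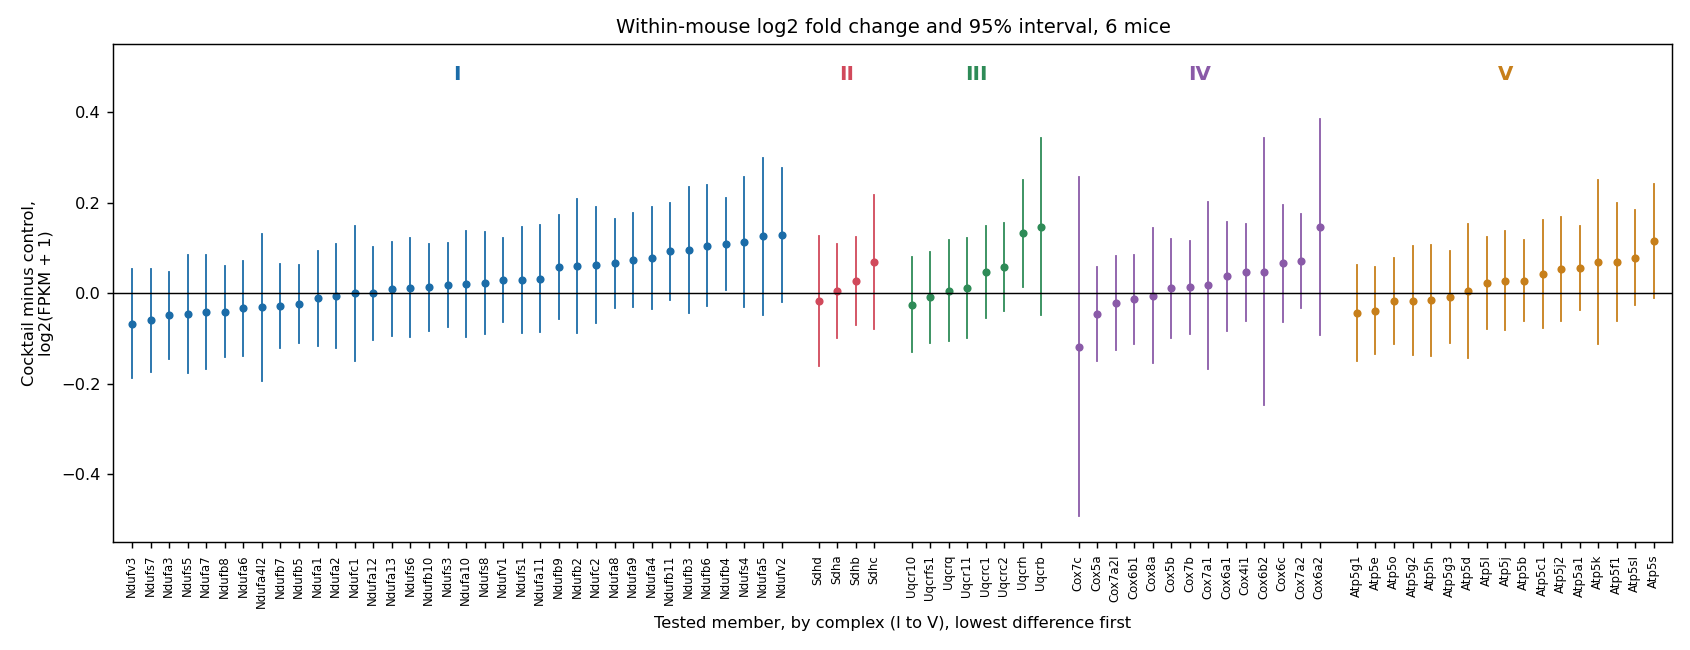
Difference between the cocktail and control hemisphere of the same mouse on the log2(FPKM + 1) scale (points) with the 95% interval of the limma fit (lines), for 79 tested loci grouped by complex and ordered by size, n = 6 mice. Points stay between -0.12 (Cox7c) and 0.15 (Uqcrb), and the intervals of Uqcrh and Ndufb4 alone leave out 0 before adjustment.

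The largest positive differences were those of Uqcrb, Cox6a2, Uqcrh and Ndufv2. Uqcrh, the hinge protein of complex III, had control values from 101.2 to 147 FPKM (median 129.5) and cocktail values from 132 to 152 (median 136). The ranges overlapped, yet the cocktail hemisphere was the higher one in 6 of 6 mice, by 0.02 to 0.38 on the log2 scale. The fitted log2 fold change was 0.13 ± 0.0543 (SE; limma adjusted p = 0.516, exact permutation p = 0.03125, the smallest possible). Atp5a1 was the other locus higher in 6 of 6 mice, by 0.01 to 0.18, with control values from 266 to 315 FPKM and cocktail values from 302 to 324 and a fitted difference of 0.06 ± 0.0424 (limma adjusted p = 0.834). These 2 of 80 members are 2.5%, where 3.64% of all loci tested were higher in all mice, and 0 members were lower in all mice, where 2.66% of all loci were. Quantile normalization left 0 members higher in all mice, and the difference of Atp5a1 turned to -0.01. Without mouse 1 the difference of Uqcrh was 0.08 ± 0.0408 (limma adjusted p = 0.608) and that of Atp5a1 0.03 ± 0.0349 (limma adjusted p = 0.846).

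Uqcrb ranged from 38.1 to 62.3 FPKM in control and from 55.9 to 64.1 in cocktail, with a log2 fold change of 0.15 ± 0.0896 (limma adjusted p = 0.778). Only the control library of mouse 1 lay below 53 FPKM, and without that mouse the difference was 0.04 ± 0.0516 (limma adjusted p = 0.883). For Ndufv2 the control library of mouse 1 was again lowest, at 51.0 FPKM against 62.1 to 73.8 in the other five. Its log2 fold change went from 0.13 ± 0.0673 to 0.06 ± 0.0476 without mouse 1 (limma adjusted p = 0.693 and 0.776). Cox6a2 differed by 0.15 ± 0.109 (limma adjusted p = 0.828), higher in 3 of 6 mice, and by 0.02 ± 0.0838 without mouse 5 (limma adjusted p = 0.948). Ndufb4, an accessory subunit named here for its unadjusted p, went from 89.5 ± 6.67 FPKM in control to 96.6 ± 5.55 in cocktail, higher in 5 of 6 mice (log2 fold change 0.11 ± 0.0465, limma adjusted p = 0.548, exact permutation p = 0.0625).

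The largest negative differences were those of Cox7c (-0.12 ± 0.171), Ndufv3 (-0.07 ± 0.0551), Ndufs7 (-0.06 ± 0.0517) and Ndufa3 (-0.05 ± 0.0440), with limma adjusted p between 0.845 and 0.921. For Cox7c the value was -0.31 ± 0.131 without mouse 1 and 0.02 without mouse 4. Ndufv3, an accessory subunit beside Ndufv1 and Ndufv2, had control values from 57 to 70.1 FPKM and cocktail values from 55.4 to 65.6, and Ndufs7 from 68.7 to 79.7 and from 62.3 to 77.6. Both groups overlapped in each gene.

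The spread between the libraries of 1 group was larger than the difference between treatments, whose median size was 0.04 on the log2 scale. The median coefficient of variation over the 6 control libraries was 7.56% for the members, where counting error alone would give 2.95%, and 11% for all loci tested. Part of that spread was shared. In mouse 5 the members were high in both hemispheres: 70 of 80 lay above the mean of the 6 control libraries and 69 of 80 above that of the 6 cocktail libraries, 60 of them in both. Its cocktail library was the highest of its group for 50 of 80 members (62.5%, against 19.1% of all loci tested). In mouse 6, by contrast, the members were low mainly in the cocktail hemisphere with the values as deposited. There 16 of 80 lay above the group mean, against 37 of 80 in its control hemisphere, and 38 were below both group means. Its cocktail library was the lowest of its group for 35 members (43.8%, against 17.4% of all loci). The counts of 60 and 38 were not set against the same counts over all loci.

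The median deviation of the members in mouse 5 was 0.08 in control and 0.09 in cocktail on the log2 scale, while all loci deviated by 0.06 and 0.00. For mouse 6 the members' medians were -0.01 and -0.06, and those of all loci 0.04 and 0.01. In the cocktail library of mouse 5, complexes I, III, IV and V were all high (0.10, 0.12, 0.13 and 0.06) and complex II was not (0.00). The cocktail library of mouse 5 was highest for 40 members with quantile normalization and for 46 after scaling by median ratios, with median deviations of 0.07 and 0.09. Its control library was highest for 32 members as deposited but for 13 and 11 under these scalings, where its median deviation fell from 0.08 to 0.04 and 0.02. The cocktail library of mouse 6 was lowest for 31 and 38 members, with median deviations of -0.05 and -0.07. Its control library was lowest for 13 members as deposited but for 19 and 18 under these scalings, with median deviations of -0.06 and -0.05. Under both scalings the members of mouse 6 were thus low in both hemispheres. These counts concern single animals and no condition, and what sets them apart was not tested.

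**Figure D4:**
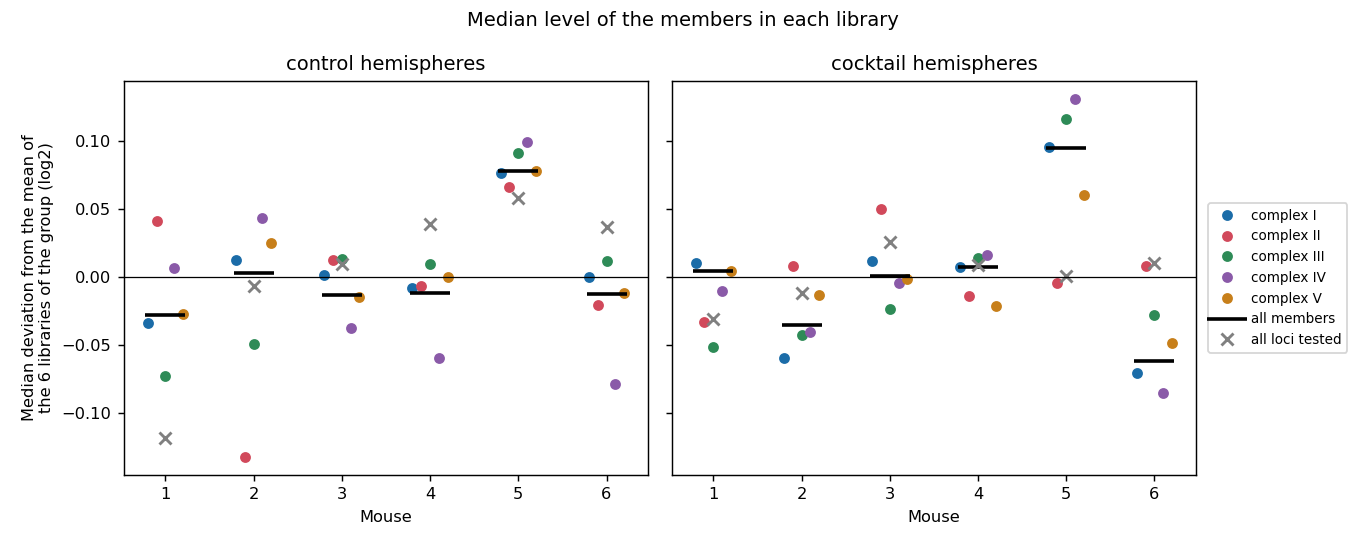
Median deviation of the tested loci from the mean of the 6 libraries of the same group, on the log2 scale, for each mouse in control (left) and cocktail (right), by complex (coloured points), over all members (black bars) and over all loci tested (grey crosses). The median over all members of mouse 5 lies above 0 in both panels, at 0.08 and 0.09, while its complex II is at -0.004 in cocktail. Complex II of mouse 2 is lowest in control at -0.13.

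The control library of mouse 1, the deepest of the 12, stood apart in another way. It was the lowest control library for 27 members (33.8%, against 50.1% of all loci tested) and the highest for 24 (30%, against 12% of all loci). Which way the members lay there depended on the scaling, since it was lowest for 19 and highest for 40 with quantile normalization and lowest for 14 and highest for 47 after scaling by median ratios. Its deviation moved with the base composition of the transcripts: Spearman's rho with GC content was 0.327 over the 80 members and 0.577 over 12001 loci, a description over genes of 1 library. Over the members other libraries came close in size, with 0.313 in the cocktail library of mouse 5 and -0.274 in that of mouse 2. Over all loci the next in size was -0.356, in the control library of mouse 2. That value is no independent comparison, since each library was set against the mean of the others of its group, here including the control library of mouse 1. In the 20 members of lowest GC (39.0% to 48.7%) the median deviation from the other five controls was -0.19, and in the 20 of highest GC (55.5% to 61.1%) it was 0.08. Among the 20 of lowest GC 6 lay above 0, and among the 20 of highest GC 8 lay below it. Uqcrb and Ndufv2 belong to the low-GC end at 42.2% and 42.0%. Among genes chosen after their values were seen, Ndufs4 was at 22.9 FPKM in that library against a median of 32.0, Atp5f1 at 84.7 against 112 and Atp5d at 255 against 191. Cox8a was also highest there, at 794 FPKM, and its fitted difference of -0.01 ± 0.0684 became 0.07 ± 0.0489 without mouse 1 (limma adjusted p = 0.992 and 0.748). Without mouse 1, 0 of 80 members were called, and after the GC trend of each library was removed the count was again 0.

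**Figure D5:**
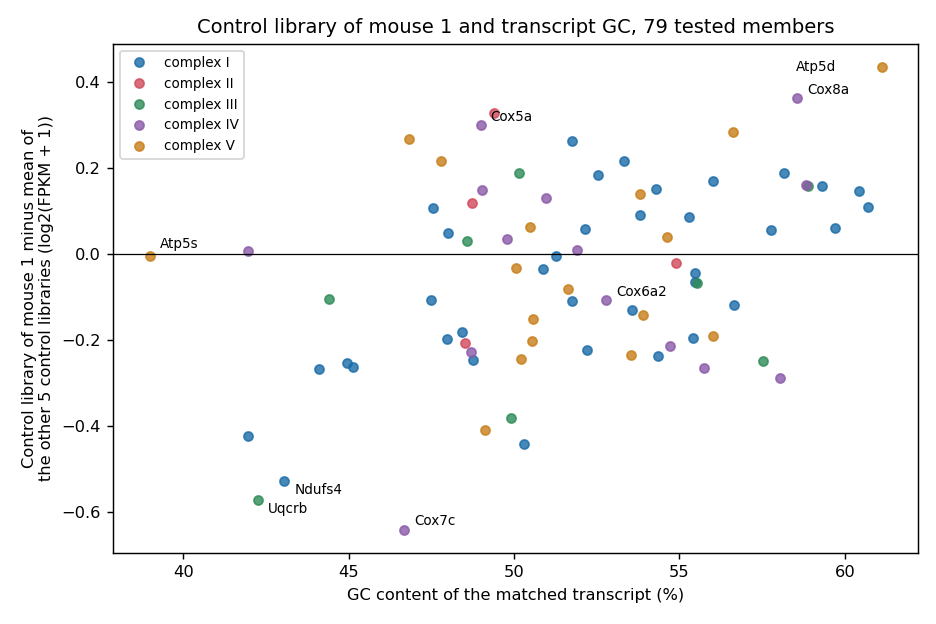
Deviation of the control library of mouse 1 from the mean of the other 5 control libraries on the log2(FPKM + 1) scale against the GC content of the matched transcript (percent), for 79 tested loci coloured by complex. Uqcrb and Ndufs4, of low GC, lie below 0, and Atp5d and Cox8a, of high GC, lie above it. Others go the other way: 6 of the 20 members of lowest GC lie above 0 and 8 of the 20 of highest GC below it.

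Related genes in the lists that accompany the members gave 0 calls as well. Cytochrome c1 (Cyc1) was at 108 ± 6.98 FPKM in control and 105 ± 4.34 in cocktail, cytochrome c (Cycs) at 55.4 ± 3.64 and 57.5 ± 3.01, the acyl carrier Ndufab1 at 44.4 ± 4.14 and 42.2 ± 0.956, the ATP synthase inhibitor Atpif1 at 134 ± 15.2 and 141 ± 6.72, and the ATP synthase subunits Usmg5 and 2010107E04Rik at 265 ± 35.3 and 286 ± 24.8 and at 125 ± 10 and 128 ± 6.24. Their log2 fold changes ran from -0.07 to 0.11 (limma adjusted p of 0.793 or more). None of 45 assembly factors, 12 regulators of mitochondrial biogenesis, 17 genes of the citric acid cycle and pyruvate dehydrogenase, 18 glycolytic genes and 10 carriers, porins and uncoupling proteins was called, and an unadjusted limma p under 0.05 was found for 2, 0, 0, 0 and 2 of them. Median log2 fold changes were 0.00, -0.01, 0.02, -0.01 and 0.03. Ppargc1a, the coactivator that drives mitochondrial biogenesis, was at 9.25 ± 0.951 FPKM in control and 9.09 ± 0.725 in cocktail (log2 fold change -0.02 ± 0.0658, adjusted p = 0.970).

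Markers of the cell types in cortex were checked beside the members. None of the 8 excitatory, 6 inhibitory, 6 astrocyte, 6 microglia and 6 oligodendrocyte markers was called, with median log2 fold changes of -0.02, 0.08, 0.06, 0.01 and 0.12. In both the inhibitory and the oligodendrocyte list 6 of 6 genes were above 0 in the fit. The summed inhibitory level ran from 479.8 to 540.2 FPKM in control and from 511 to 557 in cocktail, and the summed oligodendrocyte level from 1998 to 2566 and from 2301 to 2645. In the endothelial list 1 of 5 was called, and it is named for that: Slc2a1, the glucose transporter of brain capillaries, rose from 63.5 ± 5.67 to 76.0 ± 4.28 FPKM, higher in 6 of 6 mice with overlapping groups (log2 fold change 0.26 ± 0.0465, limma adjusted p = 0.0144). With Slc2a1 included, the summed endothelial level ran from 108 to 125 FPKM in control and from 126.5 to 137.5 in cocktail, without overlap. The median log2 fold change of that list was 0.05, and 2 of its 5 genes were higher in 6 of 6 mice (3.64% of all loci tested were). The blood markers summed to at most 2.36 FPKM in control and 2.76 in cocktail, and the markers of choroid plexus and striatum to at most 8.68 and 5.93. The part of cell makeup in the members' levels was not tested.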

How the data were processed

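RNA from 12 cortical hemispheres (6 control, 6 cocktail, paired by mouse in the labels) had been sequenced as strand-specific 50-base single reads. Per the labels and the study's methods, the authors removed ribosomal reads with BWA 0.6.1, aligned with TopHat 1.4.1 to mm10 allowing 1 location per read, and made FPKM and their confidence limits with Cufflinks 1.3.0. A table from HTSeq 0.6.1p1 counts and DESeq2 1.6.3 was also deposited. Its mean signal per gene, the authors' mean of normalised counts over the 12 libraries, served as a check, and its fold changes and p-values were not used.

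The 12 FPKM tables, with 1 row per locus, were tested with limma 3.58.1 in R 4.3.3 on log2(FPKM + 1), for loci with a mean of at least 1 FPKM, with mouse as a block and a variance trend. The pairing was taken from the mouse numbers in the labels. Deviations of same-mouse hemispheres correlated at 0.216 to 0.406 (median 0.337, 6 pairs), and those of different mice at -0.42 to 0.445 (median -0.07, 30 pairs). Single values were tested by exact sign flips over mice. The p-values of the sign flips rest on the within-mouse differences of these animals alone. In the limma p-values and intervals, the variance of each locus is also drawn toward the trend over all loci tested. Reads were recovered from the confidence limits (82.8% of values under 20 reads were whole within 0.05), and their mean over the authors' mean count was 1.00 at the median of 10663 loci and 0.782 to 1.03 for the members. On simulated data 87 of 99 loci changed by 0.5 and 101 of 101 changed by 1 on the log2 scale were called among 12032, with 9 false calls of 197. Windows of 50 bases were matched to GENCODE M21 transcripts with BWA 0.7.19, on either strand with up to 2 mismatches.

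Genes named were the core subunits and isoform pairs, the highest and lowest locus of each complex, called members, the 4 largest and 4 smallest differences, and the related lists. One member is counted but not reported by name or drawn here. The members and lists were chosen with earlier results of these data known. Alternatives covered the block, pseudocount, filter, scaling, variance trend, a voom fit on the recovered reads and leaving out each mouse, and the removal of a GC trend was added after seeing the data.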

Additional observations from a re-analysis of the deposited data

Results flagged for a closer look

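Among 88 groups of 6 values looked at (each named and tested member in control and in cocktail, and the median difference by complex), 5 held 1 value set apart from the other five by a gap over Dixon's 95% critical share of the range. Chance gives about 1 in 20 such groups, or 4.4 of 88. Cox8a was at 793.5 FPKM in the control library of mouse 1, with the others between 586 and 663. Cox5a was at 222.5 FPKM in the same library, with the others between 174 and 187. Cox7a2l was at 87.5 FPKM in the control library of mouse 6 (others 100.2 to 107.5) and at 104.8 FPKM in the cocktail library of mouse 5 (others 95.4 to 98.2). Atp5g2 was at 156.2 FPKM in the cocktail library of mouse 5, with the others between 118 and 132.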

How the results depend on the processing

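The count of members called was 0 under limma in all 15 refits, the smallest adjusted p of any member in any of them being 0.257 (without mouse 1), and 0 to 3 members had an unadjusted p under 0.05. With no replicate block, thus without the pairing by mouse, the count of members was 0 as well, and the calls over all loci went from 180 to 88. They were 118 with voom on the recovered reads and between 104 and 181 when 1 mouse was left out, lowest without mouse 4. The median difference of complex V turned from 0.03 to -0.0231 with quantile normalization. The members higher in all mice numbered 2 as deposited, 1 after scaling by median ratios, 0 with quantile normalization, and 2 to 5 among the remaining mice when 1 was left out (4 without mouse 3 and 5 without mouse 6). The members lower in all mice went from 0 to 3 with quantile normalization and were 0 to 3 when 1 mouse was left out (1 without mouse 1, 3 without mouse 3). Of 791 refitted values of 53 named genes, 736 kept their direction and their side of the threshold, and 55 changed sign, all of differences that were not called, among them 25 of 41 members. Fit and resolution are limited by 6 mice and, for Cox7c and the alternative isoforms, by reads. The cause of these shifts was not tested.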
